A study of Xenopus laevis with 12 samples.

Results

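The genes described here encode the receptors for glutamate and the proteins that hold them in place at synapses. They were chosen by gene symbol, as every gene of the deposited table whose name begins with gria, grik, grin, grid, grm, dlgap or shank followed by the family's usual numbering, together with dlg1 to dlg4, homer2 and homer3. The choice gave 47 of 44478 genes. By name they fell into 5 AMPA, 9 kainate, 10 NMDA, 3 delta and 9 metabotropic receptor genes, and 11 scaffold genes. All 3 bot types were built from animal caps, the ectoderm cut from the animal pole of Xenopus laevis embryos at stage 9. Neurobots were animal caps implanted with clumps of cells that had been dissociated from other caps and kept apart for hours before reaggregation, the treatment that lets ectoderm take a neural fate. Sham neurobots were implanted in the same way with cells reaggregated shortly after dissociation, and biobots were animal caps with no implant. Each type was represented by 4 bulk libraries, each made from a pool of whole bots, so a value is an average over several bots. Per the paper the pools were of unequal size. Neurobot pools held more bots than sham pools and than every biobot pool but the first, which was the largest of all. The age of the bots at lysis and the strain of the embryos are not given in the sources used here.

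Glutamate is the main excitatory transmitter of the vertebrate brain and retina. AMPA and kainate receptors are ion channels that open within milliseconds, whereas NMDA receptors need glutamate together with glycine or D-serine and a depolarized membrane, and let calcium in. Delta receptors resemble these channels in sequence but act mainly as synaptic adhesion partners of cerebellins in mammals. Metabotropic receptors signal through G proteins. Membrane-associated guanylate kinases such as dlg3, the dlgap and shank proteins and the homer proteins form a chain below the receptors. Xenopus laevis is an allotetraploid, so many genes occur as a long (.L) and a short (.S) copy, called homeologs.

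Library totals ran from 28633187 to 37985824 counts in neurobots, from 27265034 to 36028614 in sham neurobots and from 29664449 to 35995421 in biobots. Levels are given as FPKM, the number of fragments scaled to the length of the gene and to a size factor of the library. These factors did not simply follow the library totals. For a gene of 3000 bases a single read was worth between 0.00922 and 0.0123 FPKM depending on the library, so many of the levels below rest on a handful of reads. NB1 and BB1 (neurobot and biobot library 1) were submitted for sequencing before the other libraries. The summed FPKM of 16 genes of a neuron marker list was 205 to 358 in neurobots, against 39.2 to 41.8 in sham neurobots and 47.4 to 49.1 in biobots, and that of 12 neural progenitor genes was 111 to 289, 1.48 to 2.12 and 1.10 to 1.97 in the same order of types. NB1 stood apart from the other neurobot libraries. Its progenitor sum was the 111, its ionocyte sum was 422 FPKM against 22.5 to 51.5 in NB2 to NB4, and its photoreceptor and retina sum was 5.61 FPKM against 40.7 to 57.8. In bulk RNA, fewer cells of a type and less RNA per cell cannot be told apart.

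Most of the receptor families were near their detection limit in both bot types without a neural implant and clearly measurable in neurobots. Of the 47 genes, 44 had at least 1 read in every neurobot library, against 21 in every sham library and 21 in every biobot library. These counts include the scaffold genes, and the same shares over all genes were not counted. In 21 of the 47 genes every neurobot library lay above all 8 other libraries, where 12.1% of the 38005 genes with a read in any library did so. Over all members, the median ratio of summed counts, scaled by the library sizes behind the FPKM, was 8.36 for neurobots over biobots and 9.48 for neurobots over sham neurobots. The same medians over all genes with a read were 1.01 and 0.980.

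**Figure D1:**
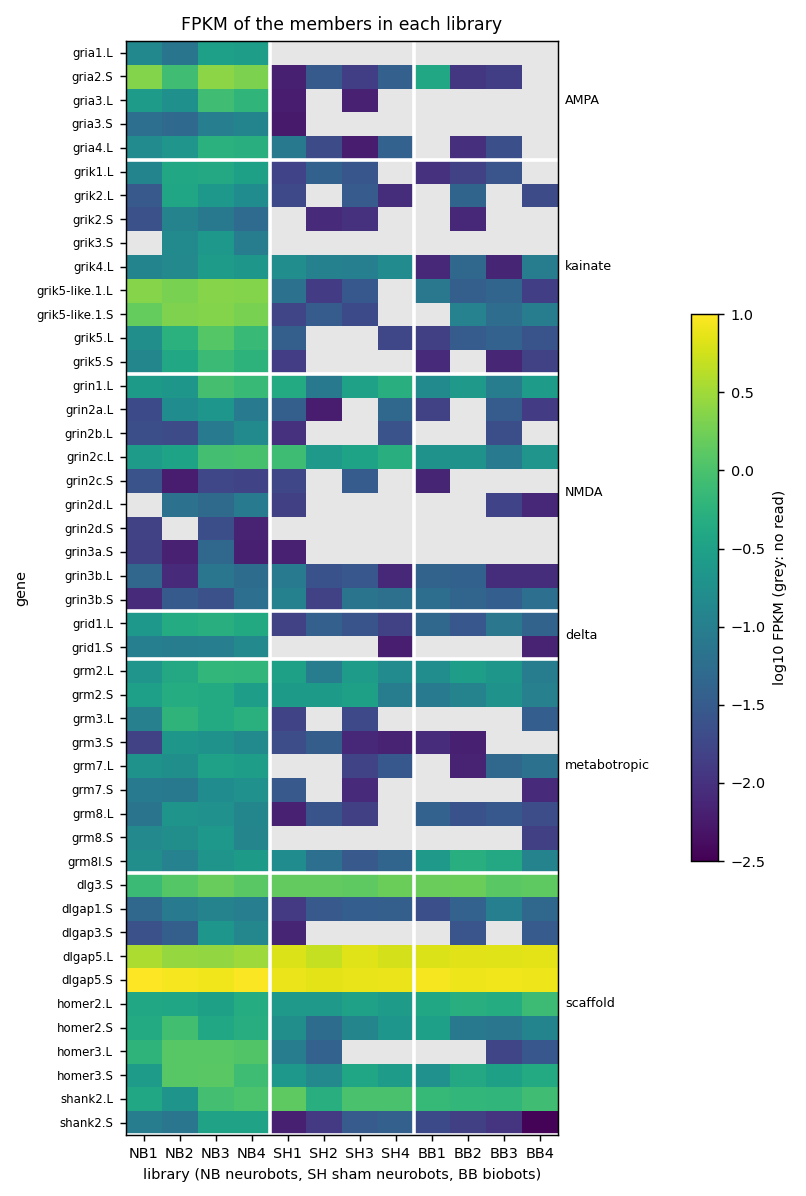
FPKM of the genes (rows, grouped by family) in each of the 12 libraries (columns: neurobots NB1 to NB4, sham neurobots SH1 to SH4, biobots BB1 to BB4), on a log10 colour scale with grey for no read. Most AMPA, kainate and metabotropic genes are brighter in the neurobot columns than in the others, whereas grin1.L, grin2c.L, dlg3.S, shank2.L and both dlgap5 copies are coloured in all 12.

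In the edgeR quasi-likelihood test with Benjamini-Hochberg adjustment, 21 genes were higher and 1 was lower in neurobots than in biobots, out of 30 that had enough reads to be tested. Among all 24082 genes tested in that comparison, 19.5% were called higher and 12.3% lower. Against sham neurobots, 18 genes were higher and 1 was lower of 29 tested, where 19.6% of 24542 genes were called higher and 13.2% lower. Genes that are nearly silent without neurons could enter these tests only through the neurobot libraries, so the counts over tested genes are not counts over the whole family. With no filter on low counts all 47 genes could be tested. Then 30 were higher in neurobots than in biobots, where 16.3% of all genes were, and 26 were higher than in sham neurobots, where 15.6% were. In the filtered test 18 genes were higher against both other types, 14 of them receptors, and 17 of the 18 overlapped in neither comparison. The share of all genes called higher against both types, with or without overlap, was not counted. A further 3 genes, grin2c.L, grik4.L and grm2.S, were called against biobots only.

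**Figure D2:**
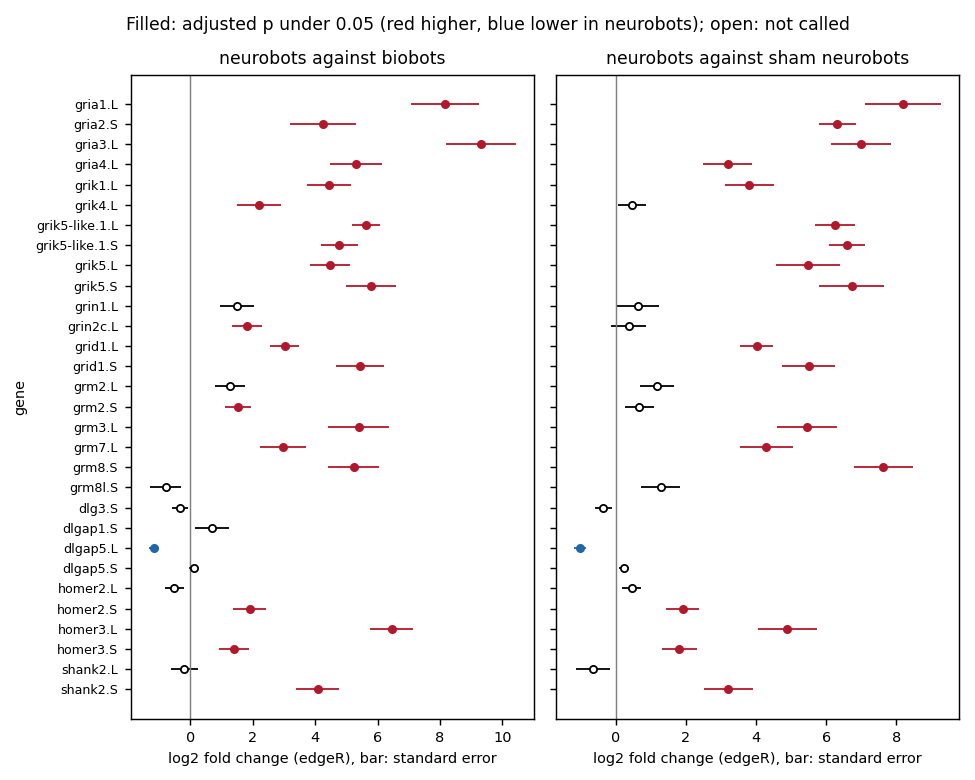
Log2 fold change of each tested gene (rows) in neurobots over biobots (left) and in neurobots over sham neurobots (right), as points with standard errors as bars. Filled red points were called higher and the filled blue point, dlgap5.L, lower in neurobots. The AMPA and kainate genes sit far to the right in both panels with the exception of grik4.L in the right panel, and grin1.L and grin2c.L lie close to 0 there.

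All 5 AMPA receptor genes had every neurobot library above every library of the other types, as did 12.1% of all genes with a read. Summed over the family, the level was 2.99 ± 1.23 FPKM in neurobots, 0.0634 ± 0.0316 FPKM in sham neurobots and 0.110 ± 0.181 FPKM in biobots (SD, n = 4 each). The family was led by gria2.S (chromosome 1S, 42411603 to 42524502, minus strand, genome v10.1), the subunit whose edited form makes AMPA receptors of mammals nearly impermeable to calcium. It had 2.21, 0.835, 2.44 and 2.06 FPKM in neurobots, against 0.00634, 0.0308, 0.0143 and 0.0372 FPKM in sham neurobots. In biobots it had 0.381, 0.0117, 0.014 and 0 FPKM. The neurobot range thus overlapped neither other type, but BB1, with 49 reads against 2, 2 and 0 in the other biobot libraries, lay well above the rest of its type. The log2 fold change was 4.25 ± 1.04 (SE) against biobots (adjusted p = 0.0103) and 6.31 ± 0.53 against sham neurobots (adjusted p = 3.54e-05). Without BB1 the change against biobots was 7.61.

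The other AMPA subunits were weaker than gria2.S in every neurobot library. For gria3.L (chromosome 8L, 39717806 to 39910944, plus strand) the neurobot libraries had 0.26, 0.182, 0.832 and 0.621 FPKM, the sham libraries 0.00578, 0, 0.00652 and 0 FPKM, and no biobot library had a read. It was therefore at least 103-fold higher in neurobots than in biobots, against a floor of 3 counts over the group (adjusted p = 0.000564), and 163-fold higher than in sham neurobots by summed counts, with a counting interval of 44.8 to 1353 because the sham libraries held 2 reads. No read of gria1.L (chromosome 3L, 22593547 to 22739413, plus strand) was found in any of the 8 sham and biobot libraries, and its neurobot libraries had 0.136, 0.0728, 0.294 and 0.279 FPKM. That made it at least 49.0-fold higher than in sham neurobots (adjusted p = 0.00137) and at least 46.5-fold higher than in biobots (adjusted p = 0.000949). The fourth member, gria4.L (chromosome 2L, 169797564 to 170006947, plus strand), kept some reads elsewhere. It had 0.153, 0.211, 0.552 and 0.49 FPKM in neurobots, 0.0816, 0.0198, 0.00576 and 0.0399 FPKM in sham neurobots and 0, 0.00939, 0.0225 and 0 FPKM in biobots. Its log2 fold change was 3.19 ± 0.69 against sham neurobots (adjusted p = 0.00636) and 5.31 ± 0.84 against biobots (adjusted p = 0.00079).

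Within neurobots, gria2.S supplied 57.6% to 78.4% of the summed AMPA FPKM, and gria3.L supplied 9.23% to 19.7%. NB2 had the lowest level of the 4 neurobot libraries for gria1.L, gria2.S and both gria3 copies, although its neuron marker sum was the highest of the 4 at 358 FPKM. NB3 and NB4 held the most gria1.L, gria3.L and gria4.L.

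**Figure D3:**
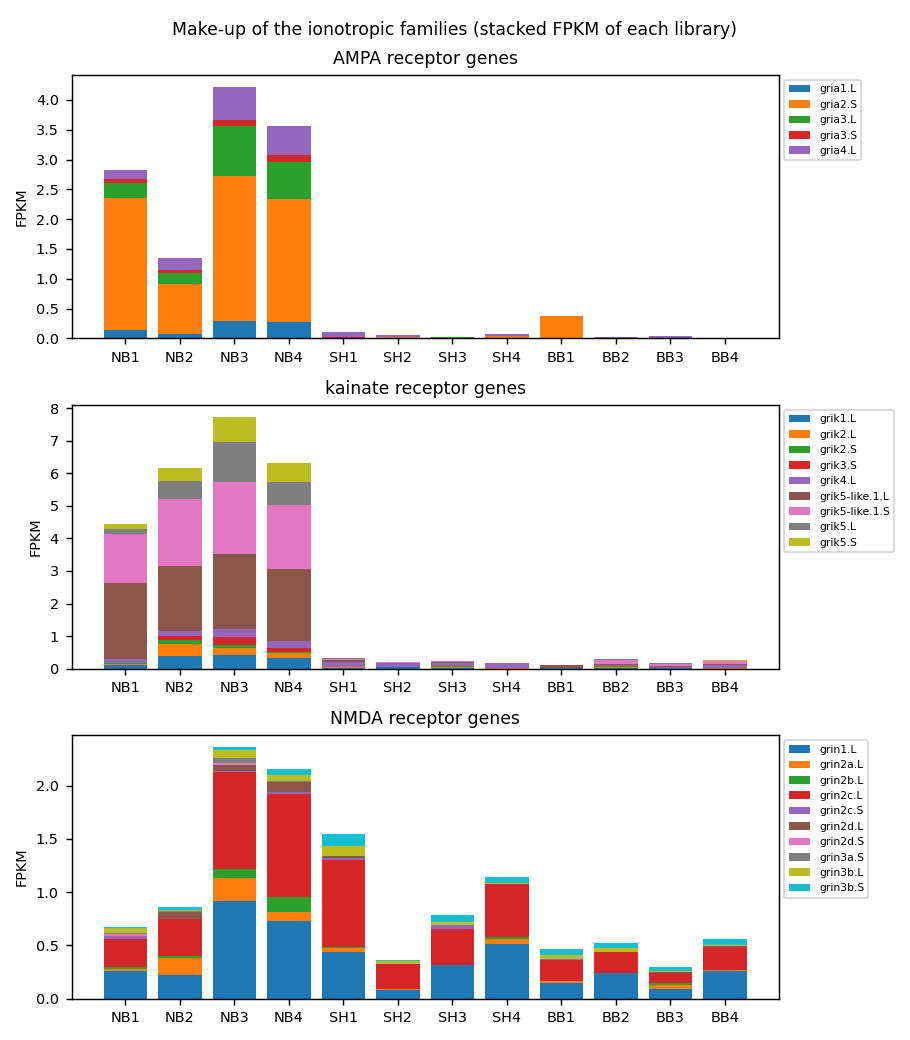
Stacked FPKM of the AMPA (top), kainate (middle) and NMDA genes (bottom) in each library, from neurobots NB1 to NB4 on the left through sham neurobots SH1 to SH4 to biobots BB1 to BB4. AMPA and kainate bars are tall only in neurobots, with gria2.S and the 2 grik5-like.1 copies as the largest blocks, and BB1 shows a gria2.S block of 0.381 FPKM. NMDA bars are present in all 12 libraries.

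Kainate receptor genes had the highest summed FPKM of the receptor families in neurobots, 6.16 ± 1.35 FPKM, against 0.234 ± 0.067 FPKM in sham neurobots and 0.215 ± 0.0783 FPKM in biobots (SD, n = 4 each). With no filter on low counts, 9 of the 9 were higher in neurobots than in biobots and 8 of the 9 were higher than in sham neurobots. Over all genes these shares were 16.3% and 15.6%. Both copies of a gene named grik5-like.1 led the family, with 29.9% to 52.9% (.L) and 28.6% to 33.8% (.S) of its level in neurobots. Without them the mean level of the family in neurobots would lie below those of the AMPA and metabotropic families. The .L copy (chromosome 7L, 93540118 to 93568888, minus strand) had 2.34, 1.98, 2.31 and 2.21 FPKM in neurobots. Its sham libraries had 0.0654, 0.0127, 0.0295 and 0 FPKM and its biobot libraries 0.0802, 0.0362, 0.0433 and 0.0142 FPKM, which left a wide gap. Its log2 fold change was 6.25 ± 0.57 against sham neurobots (adjusted p = 5.15e-05) and 5.63 ± 0.43 against biobots (adjusted p = 1.43e-05). The .S copy (chromosome 7S, 78411108 to 78438999, minus strand) had 1.5, 2.09, 2.21 and 1.97 FPKM in neurobots. It had 0.0172, 0.0335, 0.0195 and 0 FPKM in sham neurobots and 0, 0.111, 0.057 and 0.0933 FPKM in biobots, with log2 fold changes of 6.59 ± 0.52 (adjusted p = 2.56e-05) and 4.78 ± 0.58 (adjusted p = 0.000173). Their gene models, of 2295 and 1742 bases, are the shortest of the kainate members, and FPKM divides by this length. In reads, the .L copy had 154 to 179 per neurobot library and the .S copy 81 to 129.

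The gene grik5 itself encodes a high-affinity kainate subunit that in mammals works only together with the pore-forming subunits grik1 to grik3. The .L copy (chromosome 7L, 112200243 to 112336353, minus strand) had 0.167, 0.543, 1.2 and 0.713 FPKM in neurobots, 0.036, 0, 0 and 0.0176 FPKM in sham neurobots and 0.0147, 0.0332, 0.0397 and 0.026 FPKM in biobots. NB1 was the lowest neurobot library and still lay above all 8 others. The log2 fold change of grik5.L was 5.48 ± 0.91 against sham neurobots (adjusted p = 0.00137) and 4.47 ± 0.64 against biobots (adjusted p = 0.000439). Its homeolog grik5.S (chromosome 7S, 93941988 to 94061224, minus strand) had 0.126, 0.4, 0.775 and 0.579 FPKM in neurobots, against 0.0138, 0, 0 and 0 FPKM in sham neurobots and 0.00846, 0, 0.00761 and 0.0149 FPKM in biobots. For grik5.S the change against biobots was 5.80 ± 0.80 (adjusted p = 0.000351), and by summed counts it was 136-fold higher than in sham neurobots with a counting interval of 37.4 to 1131.

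Among the pore-forming kainate subunits, grik1.L had 0.121 to 0.409 FPKM in neurobots, against 0 to 0.0392 FPKM in sham neurobots and 0 to 0.0267 FPKM in biobots. It rose by 3.80 ± 0.70 on the log2 scale over sham neurobots (adjusted p = 0.00257) and by 4.45 ± 0.70 over biobots (adjusted p = 0.000784). NB1 held much less of the others than NB2 to NB4. It had 3 reads of grik2.L against 40, 25 and 18, 5 reads of grik2.S against 27, 19 and 13, and 0 reads of grik3.S against 23, 37 and 16. The same library had the lowest progenitor and retina marker sums of the neurobots, and the part of these cells in the result was not tested. No sham or biobot library had a read of grik3.S. The exception in the family was grik4.L, the other high-affinity subunit. It had 0.12, 0.142, 0.268 and 0.223 FPKM in neurobots, 0.165, 0.109, 0.104 and 0.155 FPKM in sham neurobots and 0.00807, 0.0485, 0.00726 and 0.0927 FPKM in biobots. Neurobots and sham neurobots overlapped in part, with a log2 difference of 0.47 ± 0.40 (adjusted p = 0.391), and both lay above biobots. The rise over biobots was 2.21 ± 0.69 (adjusted p = 0.0325) for neurobots and was lost in 6 of the 14 alternative fits. For sham neurobots over biobots the value was 1.74 ± 0.64 (adjusted p = 0.125).

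The NMDA receptor genes grin1.L and grin2c.L had reads in all 12 libraries and supplied most of the family's level in each. The summed level was 1.51 ± 0.868 FPKM in neurobots, 0.960 ± 0.502 FPKM in sham neurobots and 0.463 ± 0.116 FPKM in biobots (SD, n = 4 each), and the neurobot and sham libraries overlapped. Against sham neurobots, 0 of the 10 genes were called in either direction, in edgeR with or without the filter on low counts. Of all tested genes, 19.6% were called higher there with the filter and 15.6% with no filter. Among so few genes, 0 calls say little beside these shares. The 2 genes that passed the filter had unadjusted p-values of 0.328 and 0.485 in that comparison, and with no filter 5 of the 10 had an unadjusted p under 0.05. DESeq2 called 2 of them higher, grin2a.L by 2.39 (adjusted p = 0.0369) and grin2b.L by 2.94 (adjusted p = 0.0298), and edgeR without NB1 called grin2a.L higher (adjusted p = 0.0205). Against biobots, 3 of the 10 were called higher with no filter, grin2a.L, grin2b.L and grin2c.L, beside 16.3% of all genes.

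The obligatory subunit grin1.L (chromosome 8L, 990061 to 1014724, minus strand), which binds glycine, had 0.259, 0.224, 0.919 and 0.725 FPKM in neurobots. It had 0.443, 0.0823, 0.316 and 0.51 FPKM in sham neurobots and 0.152, 0.24, 0.0934 and 0.261 FPKM in biobots. Only NB3 and NB4 exceeded every other library. The log2 difference was 0.62 ± 0.60 against sham neurobots (adjusted p = 0.45) and 1.49 ± 0.54 against biobots (adjusted p = 0.0582), and neither passed the test. The difference from biobots was called by DESeq2 (adjusted p = 0.0194) and by edgeR without NB1 (0.0224), without NB2 (0.0378) and without the first submission (0.0444). The glutamate-binding subunit grin2c.L (chromosome 9_10L, 46474068 to 46508954, minus strand) was at 0.264, 0.339, 0.902 and 0.966 FPKM in neurobots, 0.813, 0.239, 0.338 and 0.493 FPKM in sham neurobots and 0.199, 0.201, 0.0893 and 0.21 FPKM in biobots. These values rest on 70 to 291, 70 to 231 and 23 to 62 reads per library in the same order of types. Every neurobot library and every sham library lay above every biobot library, while the 2 implanted types overlapped each other. It was higher in neurobots than in biobots by 1.81 ± 0.48 on the log2 scale (adjusted p = 0.0152), and differed from sham neurobots by 0.36 ± 0.50 (adjusted p = 0.601).

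In neurobots grin2c.L supplied 38.3% to 44.8% and grin1.L 26.1% to 39.0% of the NMDA level. NB3 and NB4 had NMDA sums of 2.36 and 2.16 FPKM, against 0.672 and 0.860 FPKM in NB1 and NB2. The sham libraries had 1.54, 0.367, 0.786 and 1.14 FPKM. The summed FPKM of the epidermal markers was 26093, 18066, 10033 and 10955 in NB1 to NB4 and 15963, 23497, 18700 and 18831 in SH1 to SH4, so it was lowest where the NMDA sum was highest in both types. In biobots the NMDA sum was lowest in BB3, at 0.298 FPKM, where the epidermal sum was 23836, within the biobot range of 22426 to 28642. The 12 genes of the epidermal list went both ways, so their sum is not a plain measure of epidermal cells. Of them, 5 were called higher and 2 lower in neurobots than in sham neurobots, and 4 higher and 3 lower than in biobots. The part of the epidermal cells in the NMDA values was not tested.

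The remaining 8 NMDA genes had too few reads for the filtered tests. The subunits grin2a.L and grin2b.L, which dominate in the mammalian forebrain, had 0.0195 to 0.216 and 0.0198 to 0.147 FPKM in neurobots, against at most 0.0473 and 0.0246 FPKM in sham neurobots and at most 0.0333 and 0.0222 FPKM in biobots. For grin2b.L an annotated lncRNA lies on the opposite strand, with 0 counts in every library. Both copies of grin2d and grin3a.S had 0 to 0.0895 FPKM in neurobots and at most 0.0161 FPKM elsewhere. The copy grin2c.S had 11 reads in all neurobot libraries together, 8 in sham neurobots and 1 in biobots. The glycine-binding subunit grin3b.L had 22, 18 and 11 reads in the same order of types. For its homeolog grin3b.S the neurobot libraries had 1, 4, 3 and 8 reads, the sham libraries 14, 2, 8 and 8 reads and the biobot libraries 6, 6, 4 and 7 reads.

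**Figure D4:**
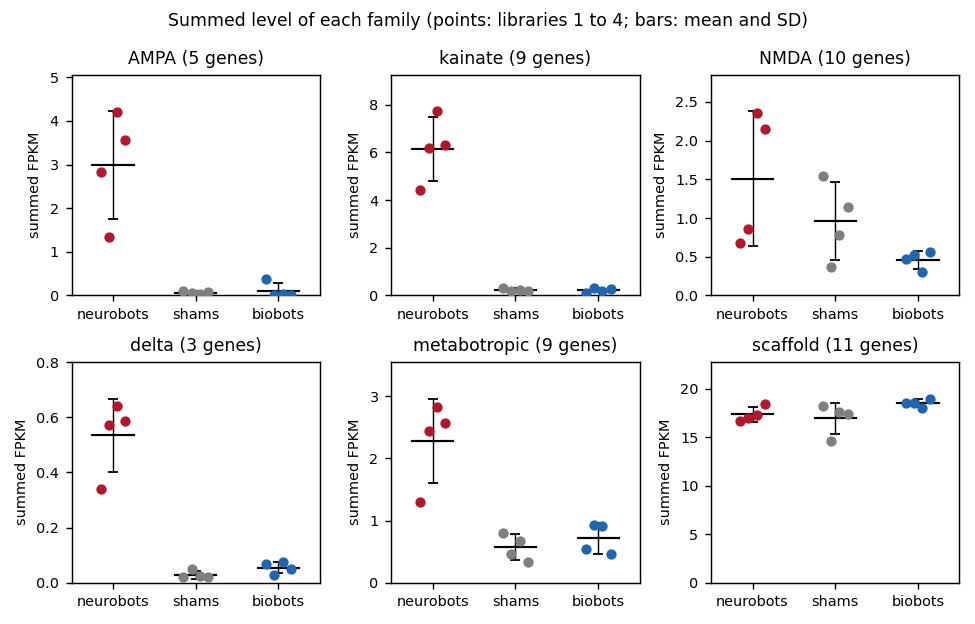
Summed FPKM of each family (1 panel per family) in neurobots, sham neurobots and biobots; points are libraries 1 to 4 from left to right and bars are the mean and SD. AMPA, kainate, delta and metabotropic points of neurobots lie above all other libraries, NMDA points of neurobots and sham neurobots overlap, and the scaffold family, dominated by dlgap5, overlaps in all 3 types.

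Among the delta receptor genes, both copies of grid1 were higher in neurobots. The summed level of the family was 0.535 ± 0.133 FPKM in neurobots, against 0.0292 ± 0.014 FPKM in sham neurobots and 0.0552 ± 0.0214 FPKM in biobots (SD, n = 4 each). The .L copy (chromosome 7L, 46909499 to 47480927, minus strand) had 0.231, 0.453, 0.503 and 0.42 FPKM in neurobots, 0.0154, 0.0373, 0.026 and 0.015 FPKM in sham neurobots and 0.047, 0.0283, 0.0762 and 0.0416 FPKM in biobots. The log2 fold change of grid1.L was 4.01 ± 0.48 against sham neurobots (adjusted p = 0.000206) and 3.03 ± 0.47 against biobots (adjusted p = 0.000663). The .S copy (chromosome 7S, 37629965 to 38177333, minus strand) had 0.101, 0.0926, 0.0998 and 0.142 FPKM in neurobots. Only SH4 and BB4 of the other libraries had a read of it, 1 each, and by summed counts it was 68.6-fold higher than in sham neurobots (counting interval 11.9 to 2749) and 65.0-fold higher than in biobots (11.3 to 2605).

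Metabotropic receptor genes summed to 2.29 ± 0.676 FPKM in neurobots, 0.568 ± 0.209 FPKM in sham neurobots and 0.713 ± 0.244 FPKM in biobots (SD, n = 4 each). All 9 belong by name to the G-protein coupled receptors that lower cyclic AMP, grm2 and grm3 in group II and grm7 and grm8 in group III, which act largely at presynaptic terminals. The group II gene grm3.L was nearly restricted to neurobots, with 12, 75, 54 and 69 reads, against 2, 0, 2 and 0 in sham neurobots and 0, 0, 0 and 4 in biobots. It had log2 fold changes of 5.45 ± 0.86 (adjusted p = 0.00106) and 5.40 ± 0.98 (adjusted p = 0.00182) over sham neurobots and over biobots. The homeolog grm3.S had 2, 32, 27 and 22 reads in neurobots and 0 to 5 elsewhere, but it overlaps elapor2.S on the opposite strand, which had 452 to 1965 counts, and the library kit does not mark strand. NB1 again had the fewest reads of both copies. In group III, grm8.S had 20 to 35 reads per neurobot library, no read in sham neurobots and 2 reads in BB4, so that it was at least 33.0-fold higher than in sham neurobots (adjusted p = 0.000571). The gene grm7.L rose by 4.29 ± 0.76 on the log2 scale over sham neurobots (adjusted p = 0.00206) and by 2.98 ± 0.74 over biobots (adjusted p = 0.0111). With no filter on low counts, grm7.S and grm8.L were also higher in both comparisons.

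Both copies of grm2 and grm8l.S had higher levels outside neurobots than the other metabotropic genes. For grm2.L (chromosome 4L, 127063285 to 127095585, plus strand) the neurobot libraries had 0.214, 0.407, 0.665 and 0.631 FPKM, the sham libraries 0.311, 0.0928, 0.27 and 0.156 FPKM and the biobot libraries 0.166, 0.286, 0.228 and 0.0949 FPKM. NB2 to NB4 lay above every other library and NB1 did not. The log2 difference was 1.17 ± 0.49 against sham neurobots (adjusted p = 0.089) and 1.28 ± 0.48 against biobots (adjusted p = 0.0633). Both were called by DESeq2 (adjusted p = 0.0466 and 0.0279) and by edgeR without NB1 (0.0252 and 0.015). The difference from biobots was also called by edgeR without the first submission (0.0262). The copy grm2.S (chromosome 4S, 107097259 to 107117505, plus strand) had 0.304, 0.46, 0.436 and 0.285 FPKM in neurobots, 0.254, 0.256, 0.308 and 0.0954 FPKM in sham neurobots and 0.0837, 0.117, 0.194 and 0.106 FPKM in biobots. It was higher in neurobots than in biobots by 1.54 ± 0.42 (adjusted p = 0.0161), which 3 of the 14 alternative fits lost, and differed from sham neurobots by 0.66 ± 0.42 (adjusted p = 0.242). The gene named grm8l.S (chromosome 8S, 87331989 to 87342094, minus strand) encodes a relative of grm8 by its name. It had 0.172, 0.114, 0.204 and 0.252 FPKM in neurobots, 0.16, 0.0606, 0.0302 and 0.0436 FPKM in sham neurobots and 0.251, 0.492, 0.413 and 0.116 FPKM in biobots. All pairs of types overlapped, and the log2 differences were 1.28 ± 0.56 for neurobots over sham neurobots (adjusted p = 0.102), −0.79 ± 0.50 for neurobots over biobots (adjusted p = 0.254) and −2.07 ± 0.60 for sham neurobots over biobots (adjusted p = 0.0641). Without SH1 the edgeR test called grm8l.S higher in neurobots than in sham neurobots (adjusted p = 0.0278) and lower in sham neurobots than in biobots (0.0498).

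The scaffold genes showed 3 kinds of pattern. The summed level of all 11 was 17.4 ± 0.76 FPKM in neurobots, 17.0 ± 1.59 FPKM in sham neurobots and 18.5 ± 0.408 FPKM in biobots (SD, n = 4 each). Both dlgap5 copies supplied most of it. Although it shares its name with the synaptic dlgap genes, dlgap5 is known for its work on the microtubules of the mitotic spindle. Without it the sums were 5.08 ± 1.44, 3.20 ± 0.492 and 3.29 ± 0.311 FPKM in the same order of types.

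Homer proteins link metabotropic receptors to shank and to calcium stores. The gene homer3.L (chromosome 1L, 124405342 to 124476152, plus strand) had 0.595, 1.24, 1.23 and 1.12 FPKM in neurobots, 0.0933, 0.0403, 0 and 0 FPKM in sham neurobots and 0, 0, 0.0171 and 0.0281 FPKM in biobots. Among the tested scaffold genes it had the largest rise, 4.89 ± 0.84 on the log2 scale over sham neurobots (adjusted p = 0.00172) and 6.45 ± 0.70 over biobots (adjusted p = 9.8e-05). Its homeolog homer3.S had 0.267, 1.24, 1.26 and 0.831 FPKM in neurobots, against 0.14 to 0.368 FPKM in sham neurobots and 0.188 to 0.436 FPKM in biobots. NB1 overlapped both other types, and the calls (adjusted p = 0.0204 and 0.0499) were lost in 5 of 14 and 8 of 14 alternative fits. For homer2.S the rise was 1.90 ± 0.48 over sham neurobots (adjusted p = 0.0134) and 1.91 ± 0.53 over biobots (adjusted p = 0.0188), and the second of these was lost in 4 of 14 alternative fits. The more evenly spread homer2.L had 0.312 to 0.47 FPKM in neurobots, 0.246 to 0.323 FPKM in sham neurobots and 0.396 to 0.784 FPKM in biobots and was not called in either neurobot comparison.

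Shank2 is a large protein that joins the dlgap and homer layers. The copy shank2.S had 28, 24, 106 and 111 reads in neurobots, against 2, 4, 9 and 12 in sham neurobots and 5, 5, 3 and 1 in biobots, and rose by 3.20 ± 0.70 (adjusted p = 0.00657) and 4.08 ± 0.70 (adjusted p = 0.00133) on the log2 scale. The copy shank2.L was present everywhere, at 0.207 to 1.01 FPKM in neurobots, 0.518 to 1.37 FPKM in sham neurobots and 0.644 to 0.833 FPKM in biobots, with log2 differences of −0.66 ± 0.48 (adjusted p = 0.304) and −0.18 ± 0.43 (adjusted p = 0.775). NB3 and NB4 held more of both copies than NB1 and NB2. The guanylate kinase gene dlg3.S (chromosome 8S, 49752126 to 49898506, plus strand) had 0.764, 1.18, 1.53 and 1.26 FPKM in neurobots, 1.45, 1.46, 1.37 and 1.66 FPKM in sham neurobots and 1.61, 1.65, 1.27 and 1.36 FPKM in biobots. The types overlapped, and the log2 differences were −0.36 ± 0.24 against sham neurobots (adjusted p = 0.264) and −0.33 ± 0.26 against biobots (adjusted p = 0.356). For dlgap3.S, with 3, 5, 30 and 19 reads in neurobots, a total of 1 read in sham neurobots and 8 in biobots, the rise over sham neurobots was called with no filter (adjusted p = 0.00488). Its log2 difference from biobots in the same setting, 2.64, was not called (adjusted p = 0.0706). The gene dlgap1.S had 7 to 19 reads per neurobot library and 2 to 15 in the others.

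The only gene called lower in neurobots was dlgap5.L (chromosome 8L, 96373887 to 96398944, plus strand), at 3.66, 2.79, 2.7 and 3.1 FPKM in neurobots, 6.59, 4.99, 6.74 and 5.94 FPKM in sham neurobots and 6.45, 6.9, 6.75 and 7.08 FPKM in biobots. It fell by 1.02 ± 0.17 against sham neurobots (adjusted p = 0.00132) and by 1.17 ± 0.16 against biobots (adjusted p = 0.000327) on the log2 scale, with no overlap in either comparison. Its homeolog dlgap5.S (chromosome 8S, 5989939 to 6023400, minus strand) had 10.02, 8.9, 8.37 and 9.61 FPKM in neurobots, 8.02, 7.15, 7.64 and 8.02 FPKM in sham neurobots and 8.89, 8.27, 8.35 and 8.26 FPKM in biobots, with log2 differences of 0.22 ± 0.14 (adjusted p = 0.239) and 0.11 ± 0.14 (adjusted p = 0.583). As a share of both copies, dlgap5.L made up 23.9% to 26.8% in neurobots. The summed FPKM of the dividing-cell markers was 111 to 145 in neurobots, 80.9 to 86.2 in sham neurobots and 104 to 123 in biobots, and their part in the dlgap5 levels was not tested.

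Homeologs often differed in level. Of the 47 genes, 32 formed 16 pairs and 15 were present as a single copy. In neurobots the .L copy was above the .S copy in all 4 libraries for 8 pairs, the .S copy was above in all 4 for dlgap5 and homer2, and 6 pairs were mixed. The most one-sided pair was grin2c, whose .L copy made up 91.3% to 98.3% of the pair in neurobots. The pairs grik5-like.1, with 48.7% to 61.0% from the .L copy, and grik5, with 55.2% to 60.9%, were close to even. Both copies were called higher in 4 of the 16 pairs in each of the 2 neurobot comparisons, and the share over all homeolog pairs was not counted. Pairs with a copy that had too few reads to be tested could not score here. With no filter on low counts, both copies of gria3, grik2, grm3, grm7 and grm8 were also called higher in each comparison. Those of grin2c, grin2d and grin3b were not. For shank2 and homer2, the copy that rose in neurobots was the .S copy, although both copies had reads in every library. Reads of near-identical copies may have been assigned to either, so that the split within a pair is uncertain. By the deposited coordinates, grik1.L lies on chromosome 2S.

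**Figure D5:**
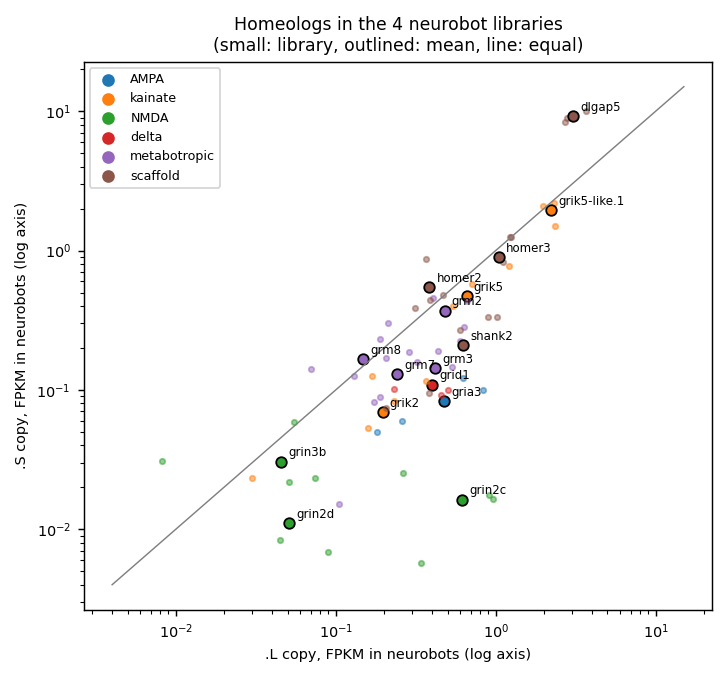
FPKM of the .S copy against the .L copy for the 16 homeolog pairs in neurobots, on log axes, with the outlined point as the mean of the 4 libraries, small points as libraries in which both copies had reads, and the line marking equal levels. The means of dlgap5, homer2 and grm8 lie above the line and the others below it, and grin2c is farthest from it, with 91.3% to 98.3% of its level from the .L copy.

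Sham neurobots and biobots, the 2 types without a neural implant, gave 0 calls in either direction over the 13 genes that could be tested between them. Of 22764 genes tested, 3.55% were called higher and 2.19% lower in sham neurobots. Of the 13 genes, 4 had an unadjusted p under 0.05 in edgeR, and DESeq2 called 3, grin2c.L higher and grm8l.S and homer2.L lower in sham neurobots. The gene grin2c.L had a log2 difference of 1.45 ± 0.40 (adjusted p = 0.0561), with every sham library above every biobot library, and was called under 4 of the alternative settings. For homer2.L the difference was −0.97 ± 0.25 (adjusted p = 0.0504), with every sham library below every biobot library, and it was called lower without BB1 (adjusted p = 0.0208). The other 34 genes had too few reads in both types for a test. SH1 was the highest of the sham libraries, or tied with the others at no read, for 21 of the 47 genes.

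Other genes of glutamate signalling were counted from lists. Among auxiliary subunits of AMPA and kainate receptors, which set their trafficking and gating, 23 genes were listed and 9 had enough reads to be tested in each neurobot comparison, several of them through the neurobot libraries alone. Of these 9, 8 were higher in neurobots in both comparisons and 0 were lower, beside the 19.6% and 19.5% of all tested genes called higher over sham neurobots and over biobots. For neto2.L, which binds kainate receptors, the neurobot libraries had 0.693, 0.972, 1.09 and 1.48 FPKM, against 0 to 0.176 FPKM in sham neurobots and 0.0109 to 0.0445 FPKM in biobots. The AMPA auxiliary gene cnih2.S had 0.799 to 1.49 FPKM in neurobots, a single sham library with reads and no reads in biobots. The 1 gene not called, shisa7.L, had log2 differences of −1.09 ± 0.62 against sham neurobots (adjusted p = 0.196) and 0.86 ± 0.54 against biobots (adjusted p = 0.257).

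Of the anchoring, clustering and signalling partners, 16 of 21 tested genes were higher and 2 were lower than in sham neurobots, and 16 of 19 were higher and 2 lower than in biobots. Of all tested genes, 19.6% were called higher and 13.2% lower than in sham neurobots, and 19.5% and 12.3% than in biobots. Some of the listed genes, such as arc.L and cbln2.S, entered these tests through the neurobot libraries alone. The kinase subunit gene camk2b.L rose by 4.19 ± 0.78 over sham neurobots (adjusted p = 0.00267) and by 8.12 ± 0.64 over biobots (adjusted p = 1.69e-05). The activity-regulated gene arc.L had 0.454, 1.04, 0.634 and 0.728 FPKM in neurobots and no read in any other library. The cerebellin gene cbln2.L, whose product binds delta receptors in mammals, had 0.802 to 1.08 FPKM in neurobots, against at most 0.0729 FPKM in sham neurobots and 0.0263 FPKM in biobots. Both pick1 copies, which encode a protein that binds AMPA subunits but is expressed widely, fell, pick1.L by 0.58 ± 0.13 against sham neurobots (adjusted p = 0.00831) and by 0.65 ± 0.14 against biobots (adjusted p = 0.00388).

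Among genes for glutamate supply, vesicle loading and uptake, 7 of 15 tested genes were higher and 2 lower than in sham neurobots, and 7 of 15 were higher and 1 lower than in biobots. Over all tested genes the shares higher and lower were 19.6% and 13.2% against sham neurobots, and 19.5% and 12.3% against biobots. Some listed genes, such as slc1a2.L against sham neurobots, entered a test through the neurobot libraries alone. The vesicular glutamate transporter gene slc17a7.L had 2.06, 2.38, 5.44 and 4.66 FPKM in neurobots, against 0, 0, 0.0295 and 0 FPKM in sham neurobots and 0.032, 0.0602, 0.0288 and 0 FPKM in biobots. The uptake transporter gene slc1a3.S, a gene of glia and radial glia in mammals, had 12.9, 53.5, 40.9 and 37.2 FPKM in neurobots, against 0.315 to 0.419 FPKM in sham neurobots and 0.122 to 0.354 FPKM in biobots. It rose by 6.54 ± 0.44 (adjusted p = 1.26e-05) and 7.18 ± 0.51 (adjusted p = 8.86e-06) on the log2 scale. The glutaminase gene gls2.L fell by 0.95 ± 0.18 against sham neurobots (adjusted p = 0.00259) and by 1.48 ± 0.24 against biobots (adjusted p = 0.00104). The glutaminase gene gls.L fell by 0.67 ± 0.18 against sham neurobots (adjusted p = 0.0153) and was the gene of this list called higher in sham neurobots than in biobots, by 0.64 ± 0.12 (adjusted p = 0.017).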

How the data were processed

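Bulk poly(A) RNA from pools of neurobots, sham neurobots and biobots (4 libraries each) was sequenced by the authors with a non-directional kit. Per the labels and the study's methods, reads were aligned to Xenopus laevis genome v10.1 with HISAT2 2.0.5, assembled with StringTie 1.3.3b and counted with featureCounts 1.5.0-p3; DESeq2 1.20.0 is also named. The authors deposited raw counts per gene and FPKM values, scaled by gene length and by size factors. Nothing states that libraries of a type came from separate clutches, so p-values measure the spread between these pools.

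Counts were tested here with edgeR's quasi-likelihood test (TMM factors, filterByExpr with a minimum count of 10 and minimum total of 15) separately for each comparison (8 libraries), p-values were adjusted over all tested genes by Benjamini-Hochberg, and the threshold was 0.05. SE is the log2 fold change divided by the square root of F. Alternatives, 14 per comparison, used DESeq2, library totals, no filter, all 12 libraries in a joint fit, a replicate block, and fits without the first submission or 1 library. Against sham neurobots the fit without the first submission repeats the fit without NB1. Between sham neurobots and biobots it repeats the fit without BB1. The procedure was tested on simulated data. Levels are the deposited FPKM values. Where a group had no read, the bound is against 3 counts over the group; with 1 to 3 counts, the ratio has an exact 95% counting interval, which covers counting error only. Gene symbols and coordinates are those of the deposited tables, and all 47 matched the RefSeq gene table of Xenopus_laevis_v10.1 by identifier. Values per library are given for the 3 members of each family with the highest mean FPKM among tested genes, for the 5 with the largest log2 fold change over biobots among those called higher against both other types without overlap, and for those called lower in neurobots. Other members are named as well. The members and lists were chosen with earlier results of these data known. Some genes are not reported here by name.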

Additional observations from a re-analysis of the deposited data

Results flagged for a closer look

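In 54 groups of 4 libraries examined, 7 held a library far from the other 3. Chance gives about 1 in 20 if values follow a normal distribution, which low counts do not. The value of gria2.S in biobot library 1 was 0.381 FPKM (49 reads), against 0 to 0.014 FPKM in the other biobot libraries. It amounted to 15.1% of the reads of NB1, the neurobot library of the same submission. BB1 had 0 reads of homer3.L against 107 in NB1, 0 of grik5-like.1.S against 81, 5 of grik5-like.1.L against 167 and 46 of grin2c.L against 70. The neuron marker sum of BB1, 48.7 FPKM, lay within the 47.4 to 49.1 FPKM of all biobots. The source of the gria2.S reads in BB1 was not tested.

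The gene grin2c.L was low in biobot library 3, at 0.0893 FPKM against 0.199 to 0.21 FPKM. For dlgap5.S biobot library 1 was high, at 8.89 FPKM against 8.26 to 8.35 FPKM. For grid1.S neurobot library 4 was high, at 0.142 FPKM against 0.0926 to 0.101 FPKM. The remaining 3 rested on 1 or 2 reads beside libraries with none, grid1.S in sham library 4 (0.00614 FPKM) and biobot library 4 (0.0068 FPKM) and grik5.S in sham library 1 (0.0138 FPKM). Any read beside 3 libraries with none is flagged by the rule, so the chance rate does not hold for these groups.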

How the results depend on the processing

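DESeq2 called 33 members higher in neurobots than in biobots and 30 higher than in sham neurobots, against 21 and 18 in edgeR, and the fit with no filter 30 and 26. Leaving out 1 library gave 18 to 29 and 17 to 26. The highest counts, 29 and 26, were without NB1, where 36 members could be tested. The fit without both libraries of the first submission also gave 29 against biobots. Against sham neurobots it is the same fit as the one without NB1, since BB1 is not in that comparison. Over all tested genes, edgeR called 19.5% and 19.6% higher with the filter, and 16.3% and 15.6% with no filter. Shares over all genes were not counted for the other settings, so their counts of members have no background beside them. Between sham neurobots and biobots, where 0 were called in either direction, 1 was higher with DESeq2, with library totals and with no filter, and 2 were lower with DESeq2. Without the first submission, here the same fit as without BB1, 1 was lower. Leaving out 1 library gave 0 to 2 higher, the 2 without sham library 2, and 0 to 1 lower.

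Library totals in place of TMM moved the median log2 change of all genes to 0.16 between sham neurobots and biobots and to 0.13 between neurobots and biobots. With them the sham to biobot differences of dlgap5.S and dlgap5.L turned to 0.0554 and 0.0252, against −0.11 and −0.14. Leaving out 1 library moved those of grm2.L between −0.162 and 0.356 and those of dlg3.S between −0.0366 and 0.0858.

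The replicate numbers did not pair the libraries. Deviations of same-numbered libraries correlated between −0.32 and 0.35, and 3, 3 and 2 of 8 libraries correlated best with their own number. With the replicate block 20 and 17 members were called higher, and grin2c.L against biobots lost its call (adjusted p = 0.0555 in edgeR). Depth limits the low genes, since 17 members were tested in neither neurobot comparison with the filter. Against biobots, calls were lost for grik4.L without BB1, BB2, BB3, NB2, NB3 or NB4 (highest adjusted p = 0.0834), for grm2.S without BB2, BB4 or NB3 (0.0603), for homer2.S without BB2, BB3, BB4 or NB2 (0.0633), and for homer3.S with library totals and without any library but NB1 (0.130). Against sham neurobots homer3.S lost its call with the block and without NB2, NB3, SH1 or SH4 (0.0572). Apart from these and grin2c.L, the called members kept their calls in all 14 alternatives of both neurobot comparisons.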
